A study of Mus musculus with 11 samples.

Results

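Interferon-stimulated genes are the genes that cells switch on when interferon reaches its receptors. A set of 38 of them, given by symbol, was followed in mouse aortic valves, and all 38 were found among the 46983 genes of the deposited count table. The valves came from wild type mice 48 hours after surgery, with 1 mouse in each of 11 libraries. The groups were aging injured valves (2 mice), aging sham valves (3 mice), young injured valves (3 mice) and young sham valves (3 mice). Aging mice were 16 to 18 months old and young mice 3 to 4 months. Injury was made in vivo with a wire that strips the valve of its endothelial lining, and sham mice had a control operation, so every valve in the series came from an operated mouse.

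Type I interferons signal through the receptor chains encoded by Ifnar1 and Ifnar2 and activate a transcription factor complex that holds STAT2 and IRF9 and binds the interferon-stimulated response element (ISRE) in promoters. Interferon gamma signals through Ifngr1 and Ifngr2 and acts on promoters through the gamma activated site (GAS). The products of the target genes sense viral nucleic acid, degrade or sequester viral RNA, attach the ubiquitin-like protein ISG15 to other proteins, or attack vacuoles that hold pathogens. Many targets answer to both kinds of interferon, so the division used here into 27 type I targets, 5 immunity-related and guanylate-binding GTPases that are strongly induced by interferon gamma, and 6 others is one of convention.

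Libraries held 27124000 to 36353474 counts, and every member was counted at least 14 times in each library. All 38 members were among the 19366 genes tested. Some properties of the libraries moved in part with the groups. Genes with at least 1 count numbered 18642 and 19015 in the aging injured libraries, 22337 to 22533 in aging sham, 21107 to 21979 in young injured and 18641 to 22194 in young sham libraries. The labels give no sex. Xist stood at 429 to 630 CPM (counts scaled to library size) in 7 libraries, which had at most 0.189 CPM of the summed Y-linked transcripts, and Y-linked transcripts stood at 166 to 193 CPM in the other 4. Both aging injured libraries, 2 of 3 aging sham, 2 of 3 young injured and 1 of 3 young sham libraries were of the Xist kind. Fibroblast and valve interstitial, endothelial, macrophage and cardiomyocyte markers were detected in all 4 groups, so markers of valve cells and of heart muscle were present side by side. The 8 endothelial markers summed to 1076 and 1079 CPM in aging injured and 774 to 1367 CPM in aging sham mice. They summed to 512 to 1146 CPM in young injured and 824 to 1239 CPM in young sham mice, so injured and sham sums overlapped at both ages. In bulk tissue, fewer cells of a type and less RNA per cell cannot be told apart.

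The most abundant members per transcript length were Ifi27l2a, a small protein of the interferon-induced ISG12 family, with a mean of 144 RPKM (reads scaled to library size and transcript length) over the 11 libraries, Lgals3bp, a secreted galectin-binding glycoprotein, with 54.5 RPKM, and Bst2, which tethers budding virus to the cell surface, with 46.5 RPKM. Mx1 and Mx2, of the family of dynamin-like antiviral GTPases, lay at the low end with 0.997 and 1.05 RPKM. Mx2 is annotated in the deposited data as a polymorphic pseudogene. Values in RPKM were present for 37 members, all but Oas3. Within a gene the libraries differed widely: the highest library exceeded the lowest by a median factor of 4.82 over the members, against 2.11 over the 15939 tested genes with no library at 0. That factor ran from 1.72 for Ifi35 to 27.0 for Ifi44.

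The members were high together in the same few mice. In 22 of the 38 the highest library was aging sham 2, and in the remaining 16 it was aging injured 1. These libraries were the 2 highest for 34 members, against 3.28% of all genes tested. Adding aging injured 2 gave the 3 highest libraries of 22 members, against 1.35% of all genes. Within aging sham valves, all 38 were higher in mouse 2 than in both other mice, which held for 33.7% of all genes. Mouse 1, the only aging library with Y-linked transcripts, was the lowest of that group for 37 members. The share of all genes lowest in it was not computed. Within aging injured valves, all 38 were higher in mouse 1 than in mouse 2, which held for 47.2% of all genes.

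The median of the members on the log2 CPM scale, relative to each gene's mean over the libraries, was 1.18 and 0.31 in aging injured valves. In aging sham valves it was -0.48, 1.21 and -0.11. In young injured valves it was -0.05, -0.58 and -0.24, and in young sham valves -0.46, -0.56 and 0.04. In each aging group 1 mouse stood well above all young mice, and aging sham 1 and 3 lay within the young range. These mice were singled out by the members' own values, so the pattern is a description. The medians of the members below are also given without aging sham 2 or aging injured 1 where a comparison uses them. The 4 libraries with Y-linked transcripts, aging sham 1, young injured 2 and young sham 1 and 2, had the 4 lowest medians, from -0.58 to -0.46, against -0.24 to 1.21 in the 7 Xist libraries. They made up 1 of 5 aging and 3 of 6 young libraries, so sex and age were partly mixed. A fit with sex as a term in edgeR was an alternative chosen after seeing the data. Its median log2 fold change, aging over young, was 0.90 in injured valves, with 38 positive and 0 called. An unadjusted p under 0.05 was reached by 15 members, against 1998 of the 19366 genes tested. In sham valves the median was 0.35 (36 positive, 2 under 0.05 against 1519 of the genes tested, 0 called). In the 7 Xist libraries alone, with 1 young sham mouse, it was 0.99 in injured valves (38 positive, 10 under 0.05, 0 called) and 0.70 in sham valves (35 positive, 0 under 0.05, 0 called). For injured over sham valves the medians were 0.21 in aging and -0.25 in young mice with sex as a term, and 0.03 and -0.17 in the Xist libraries alone, and for the interaction 0.46 and 0.30.

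**Figure D1:**
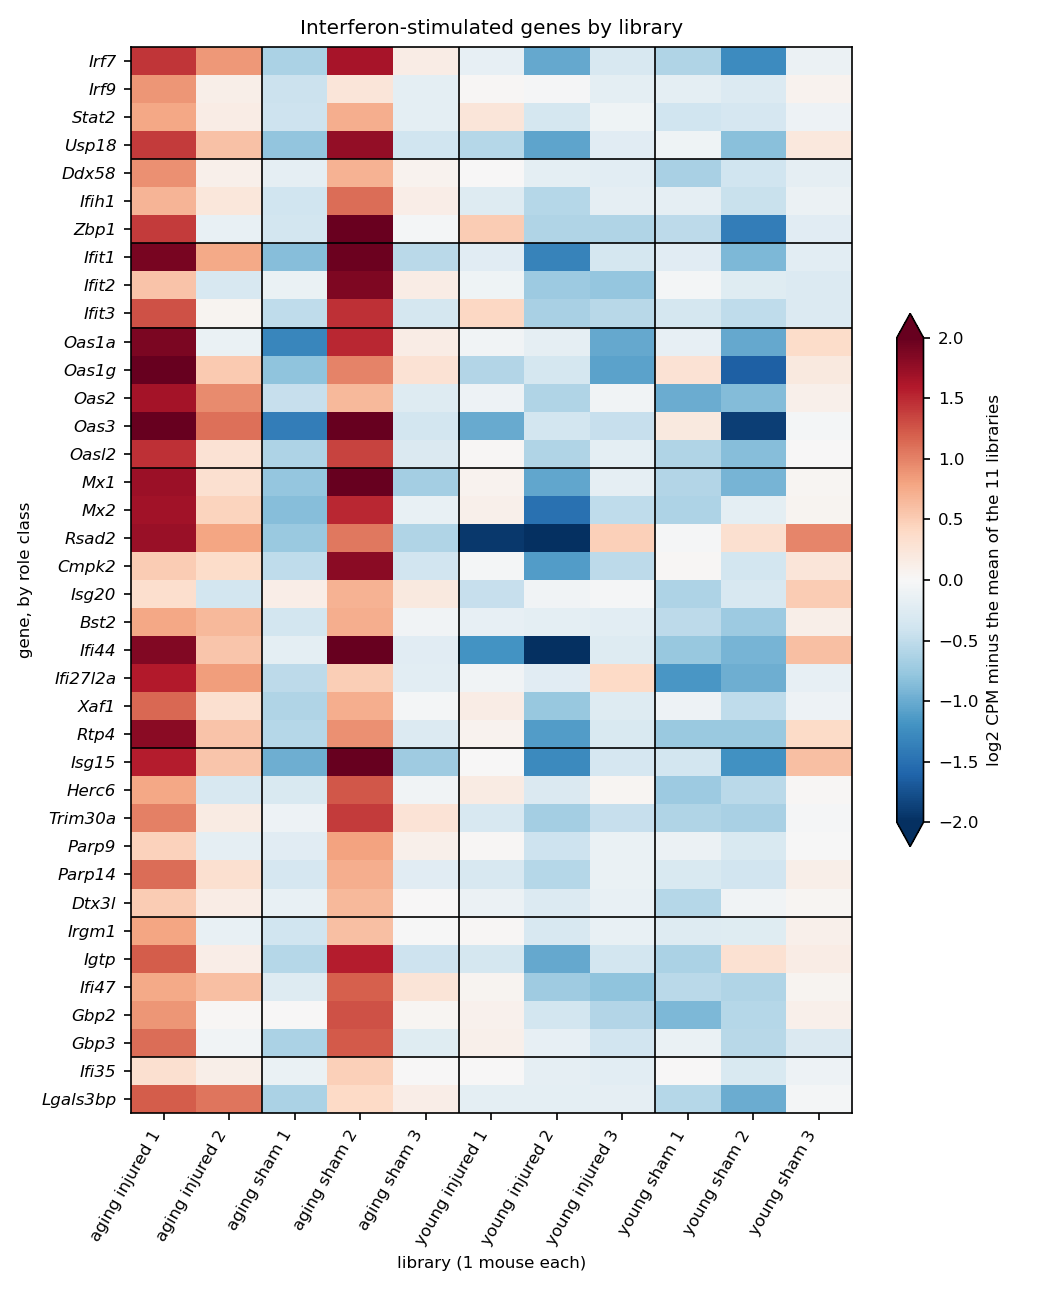
Each row is 1 of the 38 interferon-stimulated genes and each column 1 library; colour gives log2 CPM minus the gene's mean over the 11 libraries, black lines separate the 8 role classes and the 4 groups, and the colour scale ends at 2. Aging injured 1 and aging sham 2 are red in nearly every row, with medians of 1.18 and 1.21, while aging sham 1 and 3 resemble the young libraries.

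Both elements were looked for in the promoters. RefSeq windows of 300 bases on GRCm38.p6, most of each lying before the start of the gene, were found for 29 members. The ISRE core, GAAANNGAAA on either strand, occurred in windows of 16 of the 29. Some members have more than 1 window, and it lay in 17 of their 35 windows, against 3.44% of all 32851 windows. It was present for 11 of 20 type I targets and for 4 of the 5 GTPases. The GAS motif, TTCNNNGAA, reads the same on both strands and occurred for 6 of the 29, in 6 of the 35 windows, against 8.3% of all windows. Usp18, Zbp1, Ifi27l2a, Rtp4, Mx1, Parp14, Mx2, Parp9 and Oas2 had no entry. Stretches of 80 bases are shown for 5 members, 4 type I targets and 1 GTPase, that differ in how the ISRE core is arranged. They read 5′ to 3′ on the gene's strand, and capitals mark each ISRE core. The Isg15 stretch is chr4:156200846-156200925 (minus strand), Ifit1 chr19:34640759-34640838 (plus), Ifit3 chr19:34583355-34583434 (plus), Rsad2 chr12:26456528-26456607 (minus) and Igtp chr11:58199476-58199555 (plus).
Isg15: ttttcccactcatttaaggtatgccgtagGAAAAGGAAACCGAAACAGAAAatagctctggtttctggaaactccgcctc
Ifit1: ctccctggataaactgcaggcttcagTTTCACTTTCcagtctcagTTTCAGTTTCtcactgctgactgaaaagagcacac
Ifit3: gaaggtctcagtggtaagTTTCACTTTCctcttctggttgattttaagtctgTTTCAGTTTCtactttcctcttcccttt
Rsad2: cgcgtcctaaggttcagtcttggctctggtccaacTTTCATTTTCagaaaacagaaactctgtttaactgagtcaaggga
Igtp: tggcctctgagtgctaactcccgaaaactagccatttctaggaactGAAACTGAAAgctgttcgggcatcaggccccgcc
In Isg15 3 overlapping copies form 1 run from 78 to 57 bases before the start. Ifit1 and Ifit3 each carry 2 separate copies on the other strand, and Rsad2 and Igtp carry 1 each. A match describes the letters only, and the absence of one says nothing about the factor.

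Age in injured valves gave the highest member median of the 5 comparisons. No member was called at an adjusted p under 0.1 and a fold over 2, the thresholds in the series' design text (edgeR's quasi-likelihood test, smallest adjusted p = 0.148), where 0.062% of all genes tested were called. All 38 log2 fold changes, aging over young, were positive, from 0.20 to 2.35, with a median of 1.11 against -0.04 over all genes. An unadjusted p under 0.05 was reached by 22 members (57.9%, against 12.5% of all genes), and a log2 fold change over 1 by 21 (55.3%, against 6.79%). In 27 members both aging injured mice exceeded all 3 young injured mice, which held for 9.89% of all genes. DESeq2 called 599 of the 19366 genes tested, 166 higher and 433 lower in aging injured valves. Of these 7 were members, Irf7, Oas2, Rtp4, Lgals3bp, Parp14, Oas1g and Ifi27l2a, all higher in aging injured valves. The alternative limma fits on RPKM called 36 and 40 genes and 0 members.

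Without aging injured 1, 1 aging injured mouse is left and is assumed to vary like the other groups, so p-values are not given. The median was then 0.65 and 33 members were positive. Without aging injured 2 the median was 1.45. Without young injured 2, the only injured library with Y-linked transcripts, it was 1.01 and all 38 were positive. An unadjusted p under 0.05 was then reached by 10 members, against 2004 of the 19366 genes tested. Detected genes were fewest in both aging injured libraries and in young sham 1. The deposited columns of these libraries carry consecutive numbers, above those of all other libraries used, and the meaning of the numbers is not given. For age in injured valves, detected genes and column number cannot be told apart from the group. Young sham 1 had a median of -0.46 over the members, but it is 1 young mouse with Y-linked transcripts. The part of detection in the members' values was not tested.

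Among the regulators, Irf7, the transcription factor that amplifies type I interferon responses (ENSMUSG00000025498, mm10 chromosome 7, 141262706 to 141266481), had 56.1 and 37.9 CPM in aging injured mice, against 18.5, 10.1 and 16.6 CPM in young injured mice. The groups did not overlap, and the log2 fold change was 1.64 ± 0.55 (SE, adjusted p = 0.273 by edgeR). Stat2, a transcription factor of the type I pathway (chromosome 10, 128270576 to 128292849), had 79.4 and 51.8 CPM in aging injured mice, against 55.0, 36.6 and 44.1 CPM in young injured mice. There aging injured 2 lay below young injured 1, and the log2 fold change was 0.54 ± 0.31. Stat2 had 35.1, 76.7 and 40.6 CPM in aging sham mice and 35.5, 36.8 and 43.2 CPM in young sham mice. Irf9, the DNA-binding part of that complex, and Usp18, which strips ISG15 from proteins and damps the type I receptor, had log2 fold changes of 0.61 ± 0.24 and 1.64 ± 0.66.

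Of the RNA and DNA sensors, Ddx58, which encodes RIG-I (chromosome 4, 40203773 to 40239828), had 90.3 and 51.3 CPM in aging injured mice, against 48.3, 41.8 and 41.6 CPM in young injured mice. All aging values lay above all young ones, by 0.69 ± 0.28 on the log2 scale. Ifih1, which encodes MDA5, differed by 0.80 ± 0.35 and Zbp1, a sensor of Z-form nucleic acid, by 0.95 ± 0.70.

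The oligoadenylate synthetases, which make the activator of RNase L, had the highest class median, 1.60 over 5 genes, each with a log2 fold change over 1. Oas2 (chromosome 5, 120730333 to 120749853) had 49.3 and 30.0 CPM in aging injured mice, against 14.4, 10.2 and 14.7 CPM in young injured mice. Even the lower aging value was above every young value, and the log2 fold change was 1.60 ± 0.40 (edgeR adjusted p = 0.168). Oas2 had 11.3, 24.5 and 13.0 CPM in aging sham mice and 7.74, 8.53 and 16.6 CPM in young sham mice. Oasl2 (chromosome 5, 114896936 to 114912234) had 125 and 55.9 CPM in aging injured mice, against 46.5, 30.0 and 39.9 CPM in young injured mice. The log2 fold change of Oasl2 was 1.22 ± 0.52. It had 29.7, 116 and 37.3 CPM in aging sham mice and 30.1, 25.1 and 45.6 CPM in young sham mice. For Oas1a and Oas1g, near-identical neighbours whose reads may be split between them, the values were 1.58 ± 0.75 and 2.25 ± 0.72.

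Of the IFIT genes, whose products bind foreign RNA, Ifit3 (chromosome 19, 34583531 to 34588731) had 102 and 43.8 CPM in aging injured mice, against 56.0, 26.9 and 28.6 CPM in young injured mice. The groups overlapped, with young injured 1 above aging injured 2, and the log2 fold change was 0.97 ± 0.55. Ifit1, with 2 ISRE cores like Ifit3, differed by 2.00 ± 0.71 without overlap, and Ifit2 by 0.68 ± 0.50.

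The other antiviral effectors had a class median of 1.35. In 9 of 10 both aging injured mice exceeded all 3 young injured mice, against 9.89% of all genes. Ifi27l2a (chromosome 12, 103442167 to 103443680) had 155 and 92.0 CPM in aging injured mice, against 49.5, 44.3 and 68.5 CPM in young injured mice. The log2 fold change was 1.19 ± 0.36 (edgeR adjusted p = 0.237). Rsad2, which encodes viperin, an enzyme that makes a chain-terminating nucleotide (chromosome 12, 26442753 to 26456452), had 20.7 and 10.8 CPM in aging injured mice, against 1.59, 1.45 and 8.65 CPM in young injured mice. Young injured 3 was close to aging injured 2, and the other young injured mice were far below both, giving 2.02 ± 0.77. Ifi44 had the largest value of all members, 2.35 ± 0.88, and Isg20, an RNA exonuclease, the smallest, 0.20 ± 0.36.

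In the ubiquitin-like and ADP-ribosylation class, Parp14, an ADP-ribosyltransferase (chromosome 16, 35832874 to 35871544), had 93.0 and 53.7 CPM in aging injured mice, against 34.2, 29.1 and 39.3 CPM in young injured mice. The groups were apart, by 1.10 ± 0.32 (edgeR adjusted p = 0.225). Parp14 had 34.1, 70.9 and 36.8 CPM in aging sham mice and 34.8, 33.0 and 46.6 CPM in young sham mice. Trim30a, a tripartite motif protein (chromosome 7, 104409025 to 104465193), had 44.3 and 24.7 CPM in aging injured mice, against 17.6, 13.7 and 16.1 CPM in young injured mice, also without overlap, and 1.13 ± 0.40. Isg15 itself differed by 1.60 ± 0.85, and Herc6, the main ISG15 ligase of the mouse, by 0.35 ± 0.45.

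Lgals3bp (chromosome 11, 118392751 to 118402092) had the smallest p of all members. It had 292 and 264 CPM in aging injured mice, against 110, 109 and 110 CPM in young injured mice. The replicates were tight in both groups (278 ± 19.3 CPM, n = 2, against 110 ± 0.629 CPM, n = 3, SD), and the log2 fold change was 1.34 ± 0.29 (edgeR adjusted p = 0.148, DESeq2 adjusted p = 0.00302). Both aging injured mice were far above every young injured mouse.

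**Figure D2:**
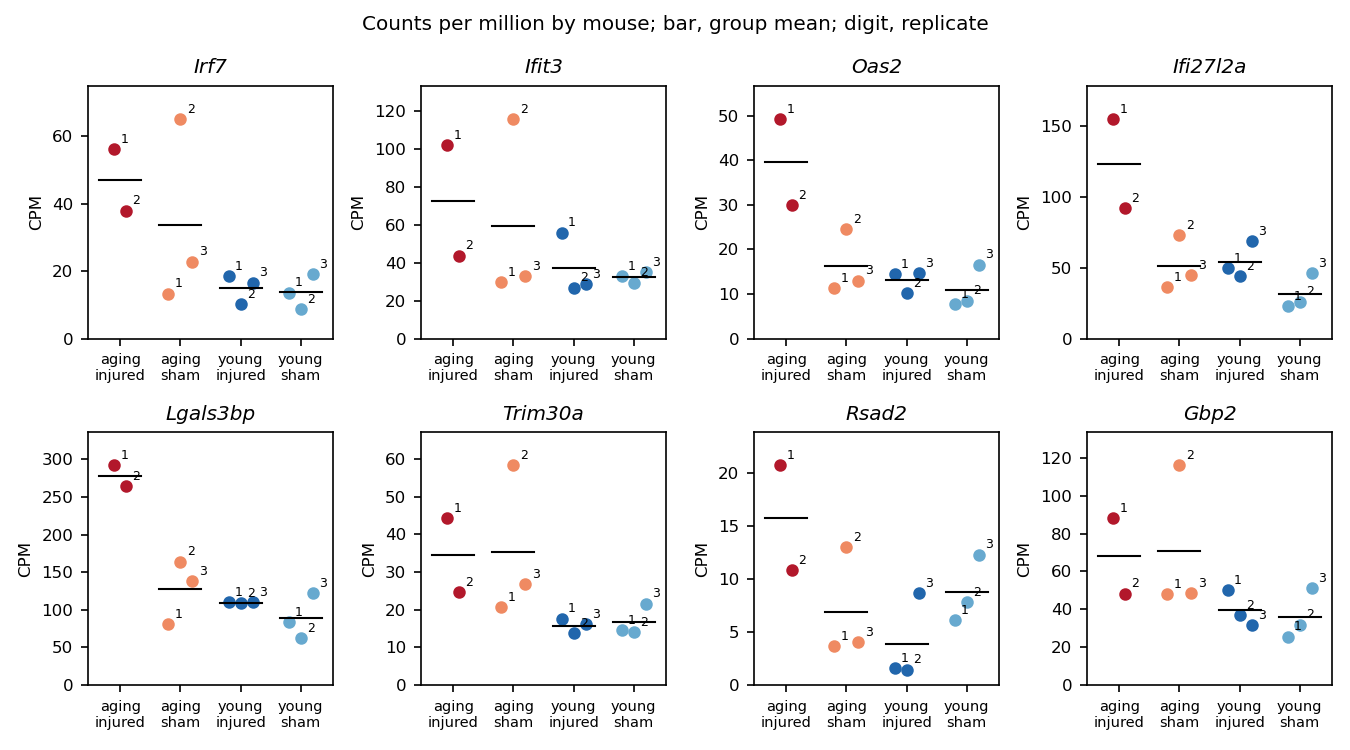
Points give CPM in each mouse for 8 members, with the replicate digit beside each point and a bar at the group mean; axes start at 0. Aging sham 2 and aging injured 1 are the 2 highest mice for Irf7, Ifit3 and Gbp2, whereas for Lgals3bp both aging injured mice, at 292 and 264 CPM, lie above all others.

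Age in sham valves gave a median log2 fold change, aging over young, of 0.68 over the members, against 0.02 over all genes, and 37 of 38 were positive. No member was called (edgeR, 0.0258% of all genes called). DESeq2 called 198 genes and the limma fits 22 and 9 genes, with 0 members in each. An unadjusted p under 0.05 was reached by 7 members (18.4%, against 9.19% of all genes). In 0 members were the groups apart, against 11.8% of all genes with aging sham higher. Trim30a had 20.7, 58.3 and 26.8 CPM in aging sham mice, against 14.5, 14.1 and 21.6 CPM in young sham mice, or 1.07 ± 0.36 (edgeR adjusted p = 0.441). Irf7 had 13.3, 65.1 and 22.8 CPM in aging sham mice, against 13.6, 8.65 and 19.1 CPM in young sham mice, or 1.29 ± 0.51. Ddx58 had 42.5, 77.9 and 50.1 CPM in aging sham mice, against 30.5, 36.5 and 42.5 CPM in young sham mice, or 0.64 ± 0.25. In each of these genes aging sham 2 was far above its group, and the other aging sham mice were near the young range. Rsad2 alone was lower on average, with 3.70, 13.0 and 4.07 CPM in aging sham mice and 6.12, 7.82 and 12.3 CPM in young sham mice. Without aging sham 2, the median over the members was -0.01, 17 were positive and 0 had an unadjusted p under 0.05. Without aging sham 1 it was 0.97, with 21 members under 0.05, against 1859 of the 19366 genes tested.

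Injury in aging valves gave a median log2 fold change, injured over sham, of 0.34, against -0.01 over all genes, with 29 of 38 positive. No member and no other gene was called by edgeR (0% of all genes). At an unadjusted p under 0.05 there were 4 members and 1710 genes, and DESeq2 called 307 genes, 3 of them members, while limma on RPKM called 3 genes and 0 members. In 3 of the 38 members, Oas2, Ifi27l2a and Lgals3bp, both injured mice exceeded all sham mice. That share was no larger than the 11.1% found over all genes. Lgals3bp had 292 and 264 CPM in aging injured mice, against 80.5, 164 and 138 CPM in aging sham mice, or 1.12 ± 0.29 (edgeR adjusted p = 0.359). Ifi27l2a had 155 and 92.0 CPM in aging injured mice, against 36.1, 73.1 and 44.9 CPM in aging sham mice, or 1.27 ± 0.36. Oas2 had 49.3 and 30.0 CPM in aging injured mice, against 11.3, 24.5 and 13.0 CPM in aging sham mice, or 1.29 ± 0.39. These are the members that DESeq2 called, and in all of them aging sham 2 was the highest sham mouse but stayed below aging injured 2. The result turned on single mice. Without aging sham 2 the median was 1.09, 37 members were positive and 26 had an unadjusted p under 0.05, against 1211 of the 19366 genes tested. Without aging injured 1 the median was -0.10 and 14 were positive. Without aging injured 2 it was 0.70. Without aging sham 1 it was 0.03, and without aging sham 3 it was 0.14.

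Injury in young valves left the members near 0, with a median log2 fold change of -0.02, injured over sham, against 0.01 over all genes, and 17 of 38 positive. No member was called by edgeR, DESeq2 or limma, while 0.418% of all genes were called by edgeR. In 0 members were the groups apart, against 9.54% of all genes with injured valves higher and 5.07% with injured valves lower. An unadjusted p under 0.05 was reached by 1 member (2.63%, against 9.19% of all genes). The 1 member was Ifi27l2a, with 49.5, 44.3 and 68.5 CPM in young injured mice, against 23.1, 26.1 and 46.1 CPM in young sham mice, or 0.77 ± 0.33 (edgeR adjusted p = 0.509). Only the lowest injured mouse fell within the sham range. Rsad2 ran the other way, with 1.59, 1.45 and 8.65 CPM in young injured mice, against 6.12, 7.82 and 12.3 CPM in young sham mice, or -1.17 ± 0.70. Without young injured 3 it passed the thresholds, at -2.52 ± 0.61 (edgeR adjusted p = 0.0738), the only member called by edgeR with any 1 library left out. Lgals3bp had 110, 109 and 110 CPM in young injured mice, against 84.0, 62.8 and 122 CPM in young sham mice, or 0.29 ± 0.26, which turned to -0.15 in the Xist libraries alone.

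Whether injury acted differently at the 2 ages was tested by the interaction term, positive where the injured over sham difference was greater in aging mice. It had a median of 0.35 over the members, against -0.05 over all genes, and was positive for 32 of 38. No member was called by edgeR, DESeq2 or limma (edgeR called 0% of all genes, 1523 had an unadjusted p under 0.05, and DESeq2 called 174). Rsad2 had the smallest p, with a difference of 2.36 ± 1.03 (unadjusted p = 0.0427, edgeR adjusted p = 0.62). Lgals3bp followed with 0.83 ± 0.39 and Oas2 with 1.03 ± 0.54. Without aging injured 1 the median was -0.03, and without aging sham 2 it was 1.05.

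**Figure D3:**
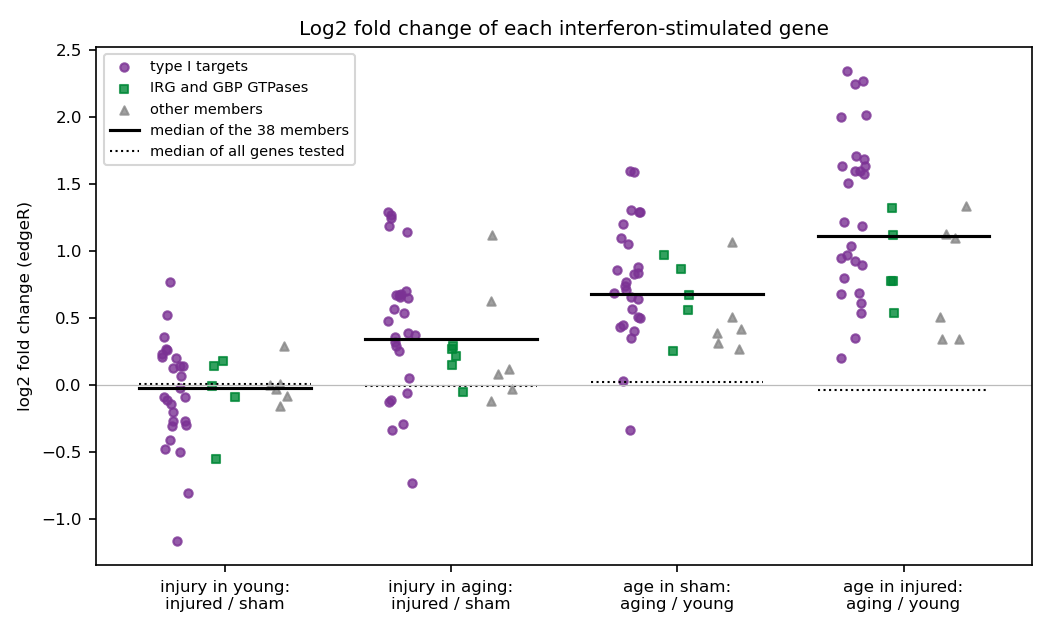
Each point is the edgeR log2 fold change of 1 member in 1 comparison, by target class; the solid line is the median of the 38 members and the dotted line that of all genes tested. The median is -0.02 for injury in young, 0.34 for injury in aging, 0.68 for age in sham and 1.11 for age in injured valves.

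The type I targets and the GTPases were compared next. In aging over young injured valves the median log2 fold change was 1.22 over 27 type I targets and 0.78 over 5 GTPases, and all of both were positive. Unadjusted p under 0.05 occurred for 17 and 2 of them. In aging over young sham valves the medians were 0.74 and 0.67, in aging injured over sham valves 0.48 and 0.22, and in young injured over sham valves -0.09 and -0.01. Gbp2, a guanylate-binding protein that coats pathogen vacuoles (chromosome 3, 142620602 to 142638008), had 88.3 and 48.3 CPM in aging injured, 48.0, 116 and 48.7 CPM in aging sham, 50.3, 37.1 and 31.8 CPM in young injured, and 25.6, 31.9 and 51.0 CPM in young sham mice. It stood out in the 2 high mice and was otherwise within the range of the young mice. Without aging injured 1 the medians for age in injured valves were 0.77 for type I targets and 0.28 for GTPases, and without aging injured 2 they were 1.69 and 1.19. For age in sham valves they were -0.03 and -0.07 without aging sham 2. For injury in aging valves they were -0.08 and -0.41 without aging injured 1, 0.77 and 0.66 without aging injured 2, 0.16 and -0.13 without aging sham 1, 1.44 and 0.66 without aging sham 2, and 0.26 and 0.03 without aging sham 3.

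A wider list of 27 interferon gamma targets outside the members, of which 26 were tested, was measured as well. Its median log2 fold change was 0.55 for age in injured valves, with 22 positive. An unadjusted p under 0.05 was reached there by 5 (19.2%, against 12.5% of all genes). The median was 0.37 for age in sham, 0.06 for injury in aging and -0.05 for injury in young valves, and edgeR called 0 of the list in each. Without aging injured 1 the median for age in injured valves was 0.28. For age in sham valves it was -0.05 without aging sham 2, 0.08 without young sham 1, 0.58 without aging sham 1 and 0.68 without young sham 3. For injury in aging valves it was 0.52 without aging sham 2 and between -0.17 and 0.03 without any other 1 aging mouse. By library its median was 0.38 and 0.16 in aging injured valves and -0.40, 0.87 and 0.03 in aging sham valves. In young injured valves it was -0.18, -0.28 and -0.15, and in young sham valves -0.56, -0.19 and 0.37. The type I targets had medians of 1.44 in aging injured 1 and 1.35 in aging sham 2. These targets took part in singling out the 2 high mice and the wider list did not, so the lists cannot be compared on this. Classes within the type I targets went opposite ways. The oligoadenylate synthetases had medians of 1.89 in aging injured 1 and 1.35 in aging sham 2, and the IFIT genes 1.27 and 1.86. Among the class II antigen presentation genes of that list, Ciita, their master activator, had 4.01 and 5.23 CPM in aging injured mice, against 7.70, 10.5 and 7.51 CPM in young injured mice, and H2-Aa had 142 and 102 CPM in aging injured mice, against 98.9, 126 and 82.6 CPM in young injured mice. Neither was called. Cxcl10, a chemokine for activated T cells, had 1.81 and 2.40 CPM in aging injured mice and 0.276, 18.2 and 0.248 CPM in aging sham mice. In the young mice it had at most 2.80 CPM, so aging sham 2 stood alone.

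**Figure D4:**
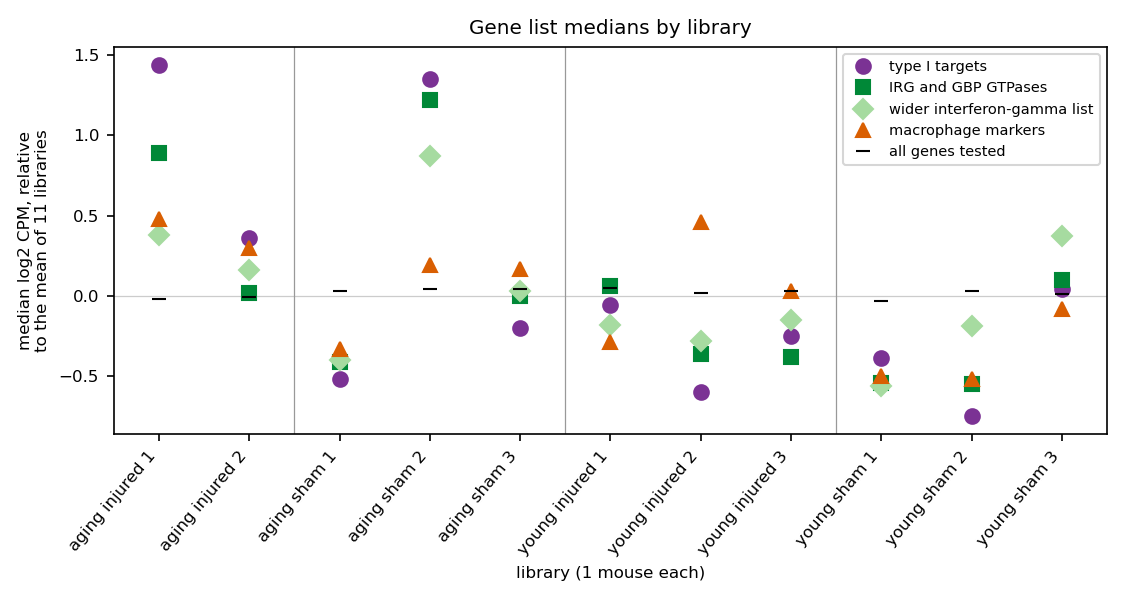
Each mark is the median over a gene list of log2 CPM relative to the mean of the 11 libraries, by library. Type I targets reach 1.44 in aging injured 1 and 1.35 in aging sham 2, the GTPases 0.89 and 1.22, the wider interferon-gamma list 0.38 and 0.87, and macrophage markers 0.48 and 0.19.

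The 2 high mice were not identical in their profile. Between 1 library each no test is possible, so the differences in log2 CPM, aging sham 2 minus aging injured 1, are given as they stand. Oas1g, Ifi27l2a, Oas2, Rtp4 and Lgals3bp were lower in aging sham 2 by 1.16, 1.09, 1.01, 0.89 and 0.83. Ifit2 and the mitochondrial nucleotide kinase gene Cmpk2 were higher in aging sham 2 by 1.30 each, and Ifi44 by 0.77. All 3 IFIT genes and 4 of 5 GTPases were higher in aging sham 2, and 4 of 5 oligoadenylate synthetases were higher in aging injured 1.

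Interferon transcripts themselves were nearly absent. Of 21 interferon genes counted, 18 were at 0 in all 11 libraries, including Ifnb1, Ifng and 13 Ifna genes, and the others summed to 29 counts over all libraries. A count of 0 allows up to 3 counts, or at most 0.118 CPM in any library, so lower levels were not detectable at this depth. Receptor genes were present. Ifnar1, a chain of the type I receptor, had 56.7 and 72.4 CPM in aging injured, 56.7 to 62.1 CPM in aging sham, 62.1 to 84.5 CPM in young injured and 51.2 to 57.3 CPM in young sham mice. Ifngr1, a chain of the gamma receptor, had 101 and 76.6 CPM in aging injured and 80.5 to 106 CPM in all other mice. Over the 6 receptor genes the median log2 fold change lay between -0.10 and 0.03 in the 4 comparisons of groups, and none was called. Among 10 signalling genes and 16 genes of nucleic acid sensing upstream of interferon, none was called in any comparison. Adar, an RNA-editing enzyme with an interferon-inducible form, had 80.9 and 79.7 CPM in aging injured mice, against 57.2, 48.1 and 47.6 CPM in young injured mice. Its groups did not overlap, at 0.66 ± 0.17 (edgeR adjusted p = 0.179).

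Markers of immune cells moved in part with these groups. All 12 macrophage markers were tested, with 0 called, and summed to 1268 and 1273 CPM in aging injured, 803 to 1131 CPM in aging sham, 784 to 1322 CPM in young injured and 716 to 956 CPM in young sham mice. Young injured 2 had the highest sum, 1322 CPM, and a median of -0.58 over the members, while aging sham 2 and aging sham 3 had close sums, 1114 and 1131 CPM, and medians of 1.21 and -0.11. T and NK cell markers (7 of 10 tested) summed to 9.15 and 13.8 CPM in aging injured, 8.98 to 11.0 CPM in aging sham, 2.54 to 6.08 CPM in young injured and 0.058 to 5.64 CPM in young sham mice. Nkg7, Klrb1c and Gzma were at 0 in aging injured mice, and the 5 B cell markers summed to at most 12.9 CPM in any mouse. All 6 markers of plasmacytoid dendritic cells, the specialised producers of type I interferon, were tested, with 0 called. They summed to 371 and 471 CPM in aging injured, 266 to 464 CPM in aging sham, 283 to 658 CPM in young injured and 496 to 788 CPM in young sham mice, sums made up almost wholly of Cox6a2 and Tcf4, which other cells express too. For age in injured valves 4 were positive and 2 negative, from -5.77 to 2.89, and Klk1 was at 0 in both aging injured mice. Siglech, their surface lectin, had 2.49 and 1.20 CPM in aging injured, 0.552 to 1.20 CPM in aging sham, 0.243 to 1.08 CPM in young injured and 1.10 to 3.22 CPM in young sham mice. Cardiomyocyte markers summed to 10494 and 9736 CPM in aging injured, 5764 to 17744 CPM in aging sham, 6570 to 28996 CPM in young injured and 15261 to 27795 CPM in young sham mice, with aging sham 2 the lowest of all. The part of these cell types in the members' values was not tested.

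Some members share sequence with other genes, and whether the counting used strand is not given in the sources used here. Irf7 overlaps Phrf1 and Parp9 overlaps Dtx3l on opposite strands. Irf9 overlaps Rnf31, Igtp overlaps Irgm2 and Ifi47 overlaps Olfr56 on the same strand. Herc6, with 6545 counts, overlaps the processed transcript RP24-491O6.1, with 2304 counts, also on the same strand. Their values are uncertain to that extent.

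**Figure D5:**
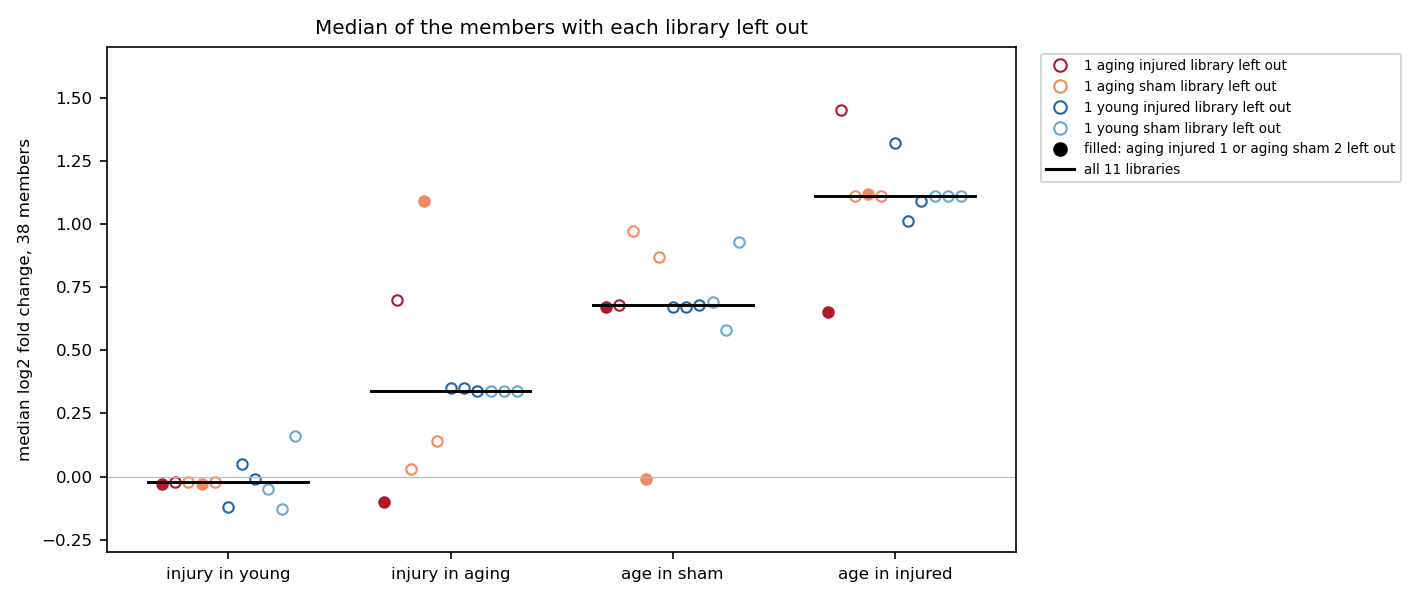
Each circle is the median edgeR log2 fold change over the 38 members with 1 library left out, coloured by the group of that library, with aging injured 1 and aging sham 2 filled; the line is the value from all 11 libraries. Injury in aging valves runs from -0.10 to 1.09 and age in sham from -0.01 to 0.97, while age in injured valves stays between 0.65 and 1.45 and injury in young valves between -0.13 and 0.16.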

How the data were processed

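Per the labels' protocols, total RNA from each frozen valve was treated with DNase, made into mRNA libraries from 200 ng and read from both ends over 150 nt. TopHat2 2.1.0 and the mm10 build are listed per the submitters' processing notes. Counting program, strand setting and annotation were not given in the sources used here. The authors deposited raw counts, with no normalization, and RPKM values for 13526 genes. Of the library columns with counts, 1 matched no sample label and was not used. Sequences came from RefSeq promoter tables on GRCm38.p6, searched in Python 3.11.15.

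The count test was edgeR 4.0.16 (R 4.3.3): genes kept by filterByExpr with a minimum count of 10, TMM scaling, 4 group means over 11 libraries, common biological coefficient of variation 0.377, and the quasi-likelihood F test with Benjamini-Hochberg adjustment over 19366 genes. SE is the absolute log2 fold change over the square root of F. A call needs an adjusted p under 0.1 and a fold over 2. CPM are TMM-scaled, and centred log2 CPM used a prior count of 2. For duplicated symbols the row with more counts was used. DESeq2 1.42.0 and limma 3.58.1 on log2(RPKM + 1) or log2(RPKM + 0.1) were alternatives, and the fits were tested on simulated data. A fit with sex as a term and 1 of the Xist libraries alone were added after seeing the data. Pairs of libraries in a group differed by 20.91 to 228.45 per degree of freedom in a chi-square test, so none was counted as a repeat deposit. The limit for a count of 0 covers counting error only.

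The members and all lists were chosen with earlier results of these data known. Values in every library are given for the member with the highest mean CPM in each of 8 role classes and for the 3 with the smallest unadjusted p in each comparison; other genes named by library were chosen after their values were seen. A gene of the pathway lists is not reported here.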

Additional observations from a re-analysis of the deposited data

How the results depend on the processing

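The medians of the members moved by less than 0.57, the SD between libraries of a group, under other scaling, filter, tool, grouping, sex or mitochondrial settings. That SD includes the 2 high mice and exceeds the medians for injury in aging valves (0.34) and the interaction (0.35), so it is a loose limit. The median for injury in aging valves fell to 0.03 in the Xist libraries alone. For age in sham valves it fell from 0.68 to 0.35 with sex as a term. Of 438 recomputed values of named members, 1 changed sign (Lgals3bp for injury in young valves, -0.15 in the Xist libraries alone) and 9 passed the thresholds that they had missed. The number of genes called depended on the tool. With DESeq2 it was 265 for injury in young, 307 for injury in aging, 198 for age in sham, 599 for age in injured valves and 174 for the interaction, and members called were 3 for injury in aging and 7 for age in injured valves. Without a filter on low counts it was 1 for injury in aging, 14 for age in sham and 38 for age in injured valves, with 1 member called (Lgals3bp, edgeR adjusted p = 0.0937). With only the compared groups in the fit it was 15 for injury in young, 16 for age in sham and 0 for age in injured valves (edgeR, 1523 genes at an unadjusted p under 0.05). With limma on log2(RPKM + 1) it was 3 for injury in aging, 22 for age in sham and 36 for age in injured valves, and with a pseudocount of 0.1 it was 153 for injury in young, 3 for injury in aging, 9 for age in sham and 40 for age in injured valves, and 3 for the interaction. With sex as a term, chosen after seeing the data, it was 3 for age in sham and 7 for age in injured valves, and in the 7 Xist libraries alone, a fit with fewer samples, it was 0 for injury in young, age in sham and age in injured valves (edgeR, with 688, 1549 and 1775 genes at an unadjusted p under 0.05), and 0 members were called by either. The cause was not tested.

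With each library left out in turn, the member median ranged from -0.13 to 0.16 for injury in young, -0.10 to 1.09 for injury in aging, -0.01 to 0.97 for age in sham, 0.65 to 1.45 for age in injured valves and -0.03 to 1.05 for the interaction. Members called ranged from 0 to 1 for injury in young valves and were 0 elsewhere. Genes called ranged from 16 to 447 for injury in young, 0 to 292 for injury in aging, 1 to 10 for age in sham and 3 to 452 for age in injured valves, and were 0 for the interaction.

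Replicate numbers are not said to pair the mice. Deviations of same-numbered libraries correlated between -0.131 and 0.245, and 1 of 15 pairs exceeded 0.1. Those of libraries with other numbers correlated between -0.23 and 0.263, and 3 of 30 pairs exceeded 0.1. Deviations were taken from the means of small groups, so these values cannot exclude a pairing. With the number as a replicate block, 4 genes were called for age in injured valves and 0 members in any comparison. With 2 aging injured mice, the comparisons that use them rest on the spread of the other groups.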
